A study of Mus musculus with 19 samples.

Results

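Dbp, Tef, Hlf, Nfil3, Per1, Per2, Per3, Nr1d1, Nr1d2 and Bhlhe40 are clock-controlled transcription factors and clock repressors, and their RNA was followed in NIH3T3 cells, a mouse embryonic fibroblast line, after fibroblast growth factor (FGF). The set was selected on the FGF against quiescent differences of Dbp, Tef and Per3, whose signal was lower with FGF; the other 7 are genes of the same families or loop. They were measured by 22 probe sets (sets of short probes on the array that read 1 transcript) out of 45101 on the array, and were 10 of the 18193 genes that the array names. All 22 probe sets passed the filter on low values.

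All arrays come from cells first starved for 48 h in medium with 0.1% serum, which stops their growth. U0126, a chemical inhibitor of the kinase MEK, was used at 20 µM and FGF at 50 ng/ml. FGF with U0126 added 0.5 h before it had 1 array at 1 h and 2 arrays each at 4, 7 and 12 h. FGF with U0126 added 1 h after it was collected at 7 h (1 array), and FGF with U0126 added 7 h after it at 12 h (1 array). FGF alone had 1 array at 1 h and 2 arrays each at 4, 7 and 12 h. Quiescent cells without FGF had 3 arrays, of which 2, replicates 1a and 1b, belong to experiment 1 and were averaged. Where 2 values are given for a group below, the first is from experiment 1 and the second from experiment 2. For quiescent cells the order is 1a, 1b, 2. No array used here holds cells kept for 1 to 12 h without FGF, so FGF and time after the medium was handled cannot be told apart. The arrays were made from 1 cell line in bulk, so fewer cells of a state and less RNA per cell cannot be told apart. The labels do not say whether the 2 experiments were independent cultures, and a p-value therefore reflects only how these arrays vary, which may be technical.

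The cellular clock is a loop in which CLOCK and BMAL1 switch on the Per and Cry genes through E-box elements, and PER and CRY proteins then shut CLOCK and BMAL1 down. The nuclear receptors REV-ERB (Nr1d1, Nr1d2) repress Bmal1 in a second loop, and BHLHE40 represses at E-boxes. DBP, TEF and HLF, the PAR-bZIP factors, activate genes through D-box elements, where NFIL3 represses. In cultured fibroblasts this clock can be reset by serum or growth factors, and ERK, the kinase that MEK activates, is one of the routes by which such signals reach immediate-early genes, among which Per1 is counted.

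The promoters of Per3, Tef, Hlf, Nfil3 and Dbp are printed because the results below turn most on these D-box regulators and on Per3, and the pathway runs through short elements in such promoters. RefSeq promoter windows (GRCm38.p6) of 300 bases, from 250 before to 50 after a transcript start, were held for 8 of the 10 genes, in 10 windows; Per2 and Bhlhe40 had no window in the table. The 250 bases before the start are shown 5′ to 3′ on the gene's strand, with matches to the searched letters in capitals: CACGTG (E-box), TTATGTAA or TTACGTAA (D-box), TGACGTCA (CRE, the cyclic AMP response element), AGGTCA (nuclear receptor half-site), GTAAACA (forkhead) and the CArG box, each on both strands.
Per3 (chr4:151044666-151044915, minus strand): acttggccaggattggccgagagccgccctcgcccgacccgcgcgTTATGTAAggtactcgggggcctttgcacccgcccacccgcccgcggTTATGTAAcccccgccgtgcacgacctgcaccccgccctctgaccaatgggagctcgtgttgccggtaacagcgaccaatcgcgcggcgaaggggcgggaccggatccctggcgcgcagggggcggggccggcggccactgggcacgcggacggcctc
Tef (chr15:81802423-81802672, plus strand): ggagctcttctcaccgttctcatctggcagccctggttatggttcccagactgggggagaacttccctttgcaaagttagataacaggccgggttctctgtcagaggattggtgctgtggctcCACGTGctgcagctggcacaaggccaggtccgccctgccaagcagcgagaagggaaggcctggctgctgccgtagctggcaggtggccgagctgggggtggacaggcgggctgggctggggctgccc
Tef, second start (chr15:81811164-81811413, plus strand): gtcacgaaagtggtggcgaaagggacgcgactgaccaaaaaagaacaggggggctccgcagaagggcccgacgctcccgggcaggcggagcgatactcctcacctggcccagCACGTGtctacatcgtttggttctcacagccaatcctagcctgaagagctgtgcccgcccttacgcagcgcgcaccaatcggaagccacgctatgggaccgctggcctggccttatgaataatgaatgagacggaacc
Hlf (chr11:90390918-90391167, minus strand): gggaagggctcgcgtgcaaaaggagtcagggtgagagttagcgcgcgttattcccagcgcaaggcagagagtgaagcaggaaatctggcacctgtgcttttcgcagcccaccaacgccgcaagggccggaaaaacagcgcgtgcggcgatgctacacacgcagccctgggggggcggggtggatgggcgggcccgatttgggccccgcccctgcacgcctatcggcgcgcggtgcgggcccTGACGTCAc
Nfil3 (chr13:52981040-52981289, minus strand): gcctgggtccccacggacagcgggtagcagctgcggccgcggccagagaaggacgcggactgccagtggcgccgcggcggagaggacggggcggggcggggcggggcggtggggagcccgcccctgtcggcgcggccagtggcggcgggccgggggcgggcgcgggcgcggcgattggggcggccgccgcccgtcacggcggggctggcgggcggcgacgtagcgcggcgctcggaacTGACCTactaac
Dbp (chr7:45704997-45705246, plus strand): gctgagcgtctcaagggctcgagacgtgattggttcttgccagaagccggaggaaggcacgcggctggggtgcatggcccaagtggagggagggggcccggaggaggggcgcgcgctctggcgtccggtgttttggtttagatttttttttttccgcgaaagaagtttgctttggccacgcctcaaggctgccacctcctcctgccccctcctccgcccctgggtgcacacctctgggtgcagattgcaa
The Per3 window held 2 D-boxes, 205 and 158 bases before the start, and a D-box occurred in 1.06% of the 32851 windows of this length. Each of the 2 Tef windows held an E-box, 127 and 138 bases before its start, against 7.15% of all windows. Hlf held a CRE 9 bases before its start (1.79% of all windows), and Nfil3 a half-site, read on the other strand, 12 bases before its start (16.3% of all windows). One of the 2 Per1 windows held an E-box 166 bases and a half-site 137 bases before its start, and Nr1d2 held a half-site 77 bases before its start. The Dbp, Nr1d1 and second Per1 windows held none of the searched letters. A CArG box occurred in 1.63% and the forkhead letters in 3.65% of all windows, and in no member's window. These matches describe letters within the windows and no binding was measured.

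Signal is the deposited MAS5 intensity, a linear scale on which the mean of each array without its highest and lowest 2% of values was 500. Its 40th percentile over all arrays was 45.2, array medians ran from 60.2 to 88.3, and values of 1 probe set are not comparable with those of another. Replicates correlated with r from 0.969 to 0.979 across genes, which are not independent replicates. All 8 fibroblast markers lay above the 40th percentile, with medians from 1921 (Thy1) to 32480 (Col3a1). Of markers of other cells, 0 of 3 for adipocytes, 1 of 3 for endothelium, 1 of 3 for muscle, 3 of 5 for leukocytes and 3 of 4 for epithelium lay above it, with the highest median for Epcam (298.5). Of the leukocyte markers, Csf1r (189.8), Cd68 (59.1) and Adgre1 (58.9) lay above it, and Itgam (26.0) and Ptprc (15.4) below. The inhibitor was checked on ERK target genes: over 4, 7 and 12 h the phosphatase gene Dusp6 averaged a signal of 1416 with U0126 and 7651 with FGF alone, a log2 difference of -2.42 (limma adjusted p = 4e-10). Fosl1, an AP-1 subunit gene, differed by -1.47 (adjusted p = 1.3e-06) and Egr1 by -4.06 (adjusted p = 5.9e-10), while Spry4 differed by -0.53 without passing the test (adjusted p = 0.11).

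Differences below are on the log2(signal + 13.6) scale, which understates changes of low signals, with their standard error from 1 limma fit over all 11 groups. Adjusted p-values are Benjamini-Hochberg values over 14996 genes and a gene is called when its adjusted p is under 0.05. FGF against quiescent cells is the comparison that chose the genes, so it is given without tests. Comparisons that use the FGF-alone or quiescent arrays share arrays with that choice, so Dbp, Tef and Per3 get a difference and its standard error there, without p, and the other 7 genes are tested. Comparisons among U0126 arrays only are tested for all 10, with a spread that the fit takes from all 11 groups. Groups of 1 array (all at 1 h, and late U0126) have no spread of their own, and tests with them borrow that of the replicated groups. All of these single arrays are from experiment 1, while the replicated groups average both experiments. A difference between a single array and a replicated group therefore also holds any offset between the experiments.

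**Figure D1:**
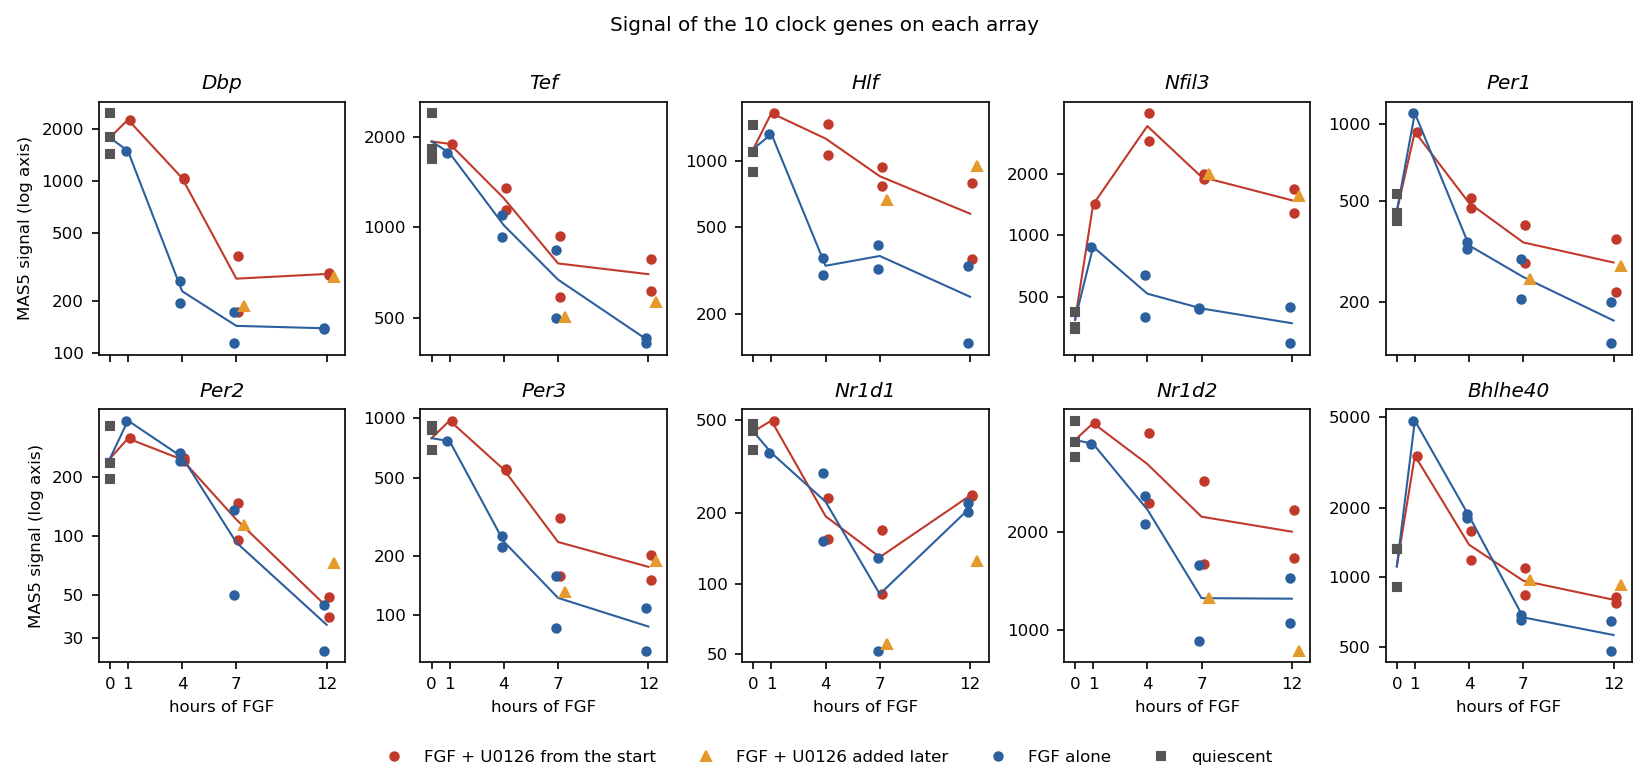
Signal of the representing probe set of each of the 10 genes (log axis) against hours of FGF; each point is 1 array, red circles are FGF + U0126 from the start, orange triangles FGF + U0126 added later, blue circles FGF alone and grey squares quiescent cells, and lines join group means. Nfil3 stands highest with U0126 at 4 h (3949 and 2877, against 642 and 399 with FGF alone), Dbp is near its final level by 7 h in both series, and Bhlhe40 peaks at 1 h in both.

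Dbp, an activator whose RNA swings strongly with the clock in many tissues, had a lower signal on every FGF array from 4 h on than on any quiescent array. With FGF + U0126 its signal was 2277.5 at 1 h, 1034 and 1046 at 4 h, 173 and 367.5 at 7 h, and 284 and 292 at 12 h. The FGF-alone arrays read 1496 at 1 h, 261 and 196 at 4 h, 114 and 173.5 at 7 h, and 138 and 139.8 at 12 h. Quiescent cells had 1812, 2486 and 1430.3. The 1 h value with FGF alone lay within the quiescent range, and at 7 h the lower U0126 array lay within the range of the FGF-alone arrays, whereas at 4 and 12 h the U0126 arrays did not overlap them. FGF alone differed from quiescent cells by -2.87 ± 0.30 at 4 h, -3.51 ± 0.30 at 7 h and -3.53 ± 0.30 at 12 h, the last an 11.5-fold lower signal. U0126 against FGF alone gave 2.13 ± 0.30 at 4 h (4.39-fold), 0.79 ± 0.30 at 7 h and 0.98 ± 0.30 at 12 h. Cells with FGF + U0126 still lay 0.74 below quiescent cells at 4 h (-0.74 ± 0.30) and 2.54 below at 12 h (-2.54 ± 0.30).

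Tef, the second PAR-bZIP activator, had smaller differences from quiescent cells than Dbp, and the genes were not tested against each other. Its signal with FGF + U0126 was 1897 at 1 h, 1144 and 1354 at 4 h, 584 and 933 at 7 h, and 614 and 783 at 12 h. Under FGF alone it was 1766.5 at 1 h, 931 and 1101 at 4 h, 500.5 and 839 at 7 h, and 428 and 411 at 12 h. Quiescent cells had 1690.4, 2401 and 1819. All FGF-alone arrays from 4 h on lay below all quiescent arrays, by -0.91 ± 0.24 at 4 h and -2.15 ± 0.24 at 12 h. The U0126 and FGF-alone arrays overlapped at 7 h (0.18 ± 0.24) and did not overlap at 4 h (0.29 ± 0.24) or at 12 h (0.71 ± 0.24).

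Hlf, the third, had a signal of 1655.5 with FGF + U0126 at 1 h, 1064.5 and 1469 at 4 h, 770.3 and 936 at 7 h, and 357 and 794.5 at 12 h. In cells with FGF alone it was 1330.0 at 1 h, 304 and 363 at 4 h, 322 and 416 at 7 h, and 148 and 334 at 12 h. Quiescent cells had 1462, 889.7 and 1096. The U0126 arrays lay above the FGF-alone arrays at each of 4, 7 and 12 h. Averaged over these times Hlf rose by 1.42 ± 0.20 with U0126 (limma adjusted p = 1.1e-04), that is 2.68-fold, and higher in both experiments at each time. By time it rose by 1.87 ± 0.35 at 4 h (limma adjusted p = 0.0042) and 1.21 ± 0.35 at 12 h (limma adjusted p = 0.035), and at 7 h the difference was 1.18 ± 0.35 (limma adjusted p = 0.063; with the experiment number as a block, 0.0013). At 12 h the difference was 0.66 without FGF alone replicate 1 (limma adjusted p = 0.35) and 0.65 without FGF + U0126 replicate 2 (limma adjusted p = 0.37), so the 12 h call rested on those 2 arrays; at 4 h the call was lost without FGF + U0126 replicate 2 (1.64, limma adjusted p = 0.05). With U0126 Hlf stood 0.16 ± 0.35 above quiescent cells at 4 h, with overlapping arrays.

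Nfil3 encodes the repressor at the same D-box elements, and it was not tested against the 3 activators. Its signal with FGF + U0126 was 1416 at 1 h, 3949 and 2877 at 4 h, 1984 and 1875 at 7 h, and 1281 and 1688 at 12 h. FGF-alone signals were 880.4 at 1 h, 642 and 399 at 4 h, 440.3 and 441 at 7 h, and 449 and 298 at 12 h. Quiescent cells had 349, 359 and 422. Every array with U0126 lay above every FGF-alone and quiescent array, while the FGF-alone and quiescent arrays overlapped at 4 and 12 h. Nfil3 rose with U0126 by 2.26 ± 0.14 on average (4.77-fold, limma adjusted p = 3.3e-08), the largest difference among the 10 genes. It rose by 2.70 ± 0.24 at 4 h (limma adjusted p = 9.4e-06), 2.10 ± 0.24 at 7 h (limma adjusted p = 7.3e-05) and 1.97 ± 0.24 at 12 h (limma adjusted p = 6.3e-05). Against quiescent cells it was 8.46-fold higher with FGF + U0126 at 4 h (3.08 ± 0.24, limma adjusted p = 5e-06). At 1 h it was 3.57-fold higher (1.84 ± 0.29, limma adjusted p = 0.021), from 1 array whose spread is taken from the replicated groups.

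The 3 PER genes, whose proteins close the main loop, had average U0126 differences of 0.56 (Per1), 0.22 (Per2) and 0.98 (Per3), and differences between them were not tested. Per1 had a signal of 936 with FGF + U0126 at 1 h, 469 and 515 at 4 h, 287 and 402 at 7 h, and 220.3 and 354 at 12 h. Arrays with FGF alone gave 1108 at 1 h, 324 and 346 at 4 h, 206 and 297.5 at 7 h, and 138 and 201 at 12 h. Quiescent cells had 535, 451 and 419.6. Both 1 h arrays stood above all quiescent arrays and all FGF-alone arrays from 4 h on stood below them. Per1 rose by 0.56 ± 0.15 with U0126 on average (limma adjusted p = 0.016), and the call was lost without FGF + U0126 7 h replicate 2 (limma adjusted p = 0.056), FGF alone 12 h replicate 1 (0.055) or FGF + U0126 12 h replicate 2 (0.057). At single times its differences of 0.43 to 0.70 did not pass; with the experiment as a block the 12 h difference of 0.70 did (limma adjusted p = 0.02).

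Per2 was near the low end of the array by 12 h. Its signal with FGF + U0126 was 313.5 at 1 h, 249 and 240.4 at 4 h, 95.6 and 146 at 7 h, and 38.3 and 48.7 at 12 h. The FGF-alone arrays read 386.5 at 1 h, 241 and 263 at 4 h, 49.7 and 135 at 7 h, and 25.9 and 44.4 at 12 h. Quiescent cells had 363, 235 and 195. The U0126 and FGF-alone arrays overlapped at 4, 7 and 12 h, and the average difference was 0.22 ± 0.22 (limma adjusted p = 0.58). Between 4 and 12 h Per2 fell in FGF alone by 2.47 on the log2 scale (SE 0.38, limma adjusted p = 9e-04). Both FGF-alone values at 12 h (25.9 and 44.4) lay below the 40th percentile of all signals (45.2), which limits how well the size of this fall is known.

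Per3 had a signal of 973 with FGF + U0126 at 1 h, 550.1 and 548 at 4 h, 158 and 314 at 7 h, and 151 and 202 at 12 h. Under FGF alone it was 765 at 1 h, 252 and 221 at 4 h, 86.1 and 159 at 7 h, and 66.2 and 109.5 at 12 h. Quiescent cells had 916, 872 and 691.5. The 1 h FGF value lay within the quiescent range and all later ones below it, with differences of -1.68 ± 0.33 at 4 h and -3.01 ± 0.33 at 12 h. U0126 gave 1.17 ± 0.33 at 4 h and 0.93 ± 0.33 at 12 h, where the arrays did not overlap, and 0.85 ± 0.33 at 7 h, where they did.

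The REV-ERB genes, repressors of Bmal1, both had lower mean signals at 7 h than at 4 h in either series, and the genes were not tested against each other. Nr1d1 had a signal of 498.5 with FGF + U0126 at 1 h, 155.5 and 233 at 4 h, 90.8 and 169 at 7 h, and 239.7 and 237 at 12 h. In cells with FGF alone it was 363 at 1 h, 152 and 296.5 at 4 h, 51.7 and 129 at 7 h, and 221 and 202 at 12 h. Quiescent cells had 373, 451 and 483. Both series were lowest at 7 h and higher again at 12 h, and they overlapped at 4 and 7 h. In FGF alone the 12 h against 7 h difference was 1.22 ± 0.39 (limma adjusted p = 0.18; with the experiment as a block, 0.016), and with U0126 it was 0.87 ± 0.39 (limma adjusted p = 0.67). The average U0126 difference was 0.18 ± 0.22 (limma adjusted p = 0.66), and FGF + U0126 lay 2.39-fold below quiescent cells on average (-1.25 ± 0.32, limma adjusted p = 0.018; without quiescent replicate 2, -1.14 with an adjusted p of 0.21).

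Nr1d2 had a signal of 4317 with FGF + U0126 at 1 h, 2453 and 4019 at 4 h, 1598 and 2865 at 7 h, and 1670.4 and 2345 at 12 h. FGF-alone signals were 3729.9 at 1 h, 2114 and 2581 at 4 h, 931 and 1582 at 7 h, and 1052 and 1451 at 12 h. Quiescent cells had 4396, 3392 and 3775. In each experiment the U0126 array stood above its FGF-alone partner at all 3 times, and the groups overlapped at 4 h. Nr1d2 rose by 0.64 ± 0.18 on average (limma adjusted p = 0.016; with the experiment as a block, 2.9e-05). The call was lost without FGF + U0126 4 h replicate 2 (limma adjusted p = 0.052), FGF + U0126 7 h replicate 2 (0.057), FGF alone 12 h replicate 1 (0.056) or FGF + U0126 12 h replicate 2 (0.056), as well as without a variance trend (0.073) and with its dimmer probe set (0.38, adjusted p = 0.37). At 7 and 12 h it passed only with the experiment as a block (0.81, limma adjusted p = 0.0018, and 0.67, limma adjusted p = 0.005).

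Bhlhe40, a repressor that is also induced by many acute stimuli, was the member with the highest 1 h signal relative to quiescent cells under FGF alone. Its signal with FGF + U0126 was 3384 at 1 h, 1187 and 1588 at 4 h, 837 and 1098 at 7 h, and 825 and 775.5 at 12 h. Arrays with FGF alone gave 4804 at 1 h, 1806 and 1891 at 4 h, 656 and 685 at 7 h, and 644 and 480.3 at 12 h. Quiescent cells had 1332.5, 1326 and 905. At 4 h the U0126 arrays lay below the FGF-alone arrays (-0.42 ± 0.21, limma adjusted p = 0.30) and at 7 and 12 h above them (0.51 ± 0.21 at each time, limma adjusted p = 0.21 and 0.14). None of these differences passed the test, and neither did the test for a U0126 difference that varied between 4, 7 and 12 h (limma F test, adjusted p = 0.26). FGF + U0126 at 1 h stood 3.06-fold above quiescent cells (1.61 ± 0.25, limma adjusted p = 0.02, again from 1 array with the spread of the replicated groups), next to 2.12 ± 0.25 with FGF alone. Between 4 and 12 h of FGF alone Bhlhe40 fell by 1.71 on the log2 scale (SE 0.21, limma adjusted p = 1.3e-04) and Per1 by 0.95 (SE 0.26, limma adjusted p = 0.046, lost in 13 of 26 alternatives).

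In the FGF averages over 4, 7 and 12 h, 9 of the 10 lay below quiescent cells with FGF alone and 7 lay below -1 on the log2 scale. The averages were -3.30 for Dbp, -2.43 for Per3, -1.85 for Hlf, -1.54 for Tef, -1.43 for Nr1d1, -1.32 for Nr1d2, -1.24 for Per2, -0.88 for Per1 and -0.31 for Bhlhe40, with Nfil3 at 0.16, and standard errors of 0.17 to 0.32. Without Dbp, Tef and Per3 the median of the other 7 was -1.24, and over all genes tested it was -0.05. In that average 19.2% of all genes passed and 11.3% passed as lower. The share of all genes below 0 or below -1 is not given here. Nothing is read from these values, since the genes were selected on this comparison. At 1 h the order was different: Bhlhe40 stood at 2.12, Per1 at 1.26, Nfil3 at 1.16 and Per2 at 0.66, and the other 6 between -0.29 and 0.25. The 1 h array is from experiment 1. Against the quiescent arrays of that experiment only, Bhlhe40 stood at 1.84, Nfil3 at 1.28, Per1 at 1.15, Per2 at 0.39 and Dbp at -0.50. The average was more negative in experiment 1 than in experiment 2 in 9 of 10 genes (for Dbp -3.61 and -2.99, for Per2 -1.83 and -0.64), and Nfil3 was 0.49 in experiment 1 and -0.17 in experiment 2.

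Of the 7 genes tested, 4 rose with U0126 in the average over 4, 7 and 12 h (Nfil3, Hlf, Nr1d2 and Per1) and 0 fell, where 22.0% of all 14996 genes were called, 11.7% of them higher and 10.3% lower as shares of all genes. Per2, Nr1d1 and Bhlhe40 did not pass. Dbp (1.30 ± 0.17), Per3 (0.98 ± 0.19) and Tef (0.40 ± 0.14) carry no test, since the FGF-alone arrays they are set against are those on which they were picked as low. The median of the other 7 was 0.56 beside 0.01 over all genes. At 4 h 2 of the 7 were called (Nfil3 and Hlf; 5.93% of all genes), at 7 h 1 (Nfil3; 6.07%) and at 12 h 2 (Nfil3 and Hlf; 12.0%). With the experiment number as a block, 2, 3 and 4 were called at 4, 7 and 12 h. Among all genes the block called 1944 of 14996 at 4 h, 12.5% at 7 h and 20.6% at 12 h. At 1 h, with 1 array a group, 0 of the 7 were called by limma (0.180% of all genes) and 0 had an unadjusted p under 0.05 (6.84% of all genes). Differences there ran from -0.50 (Bhlhe40) to 0.68 (Nfil3). The test for a difference between times gave adjusted p of 0.26 for Bhlhe40 and 0.73 to 0.99 for the other 6.

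**Figure D2:**
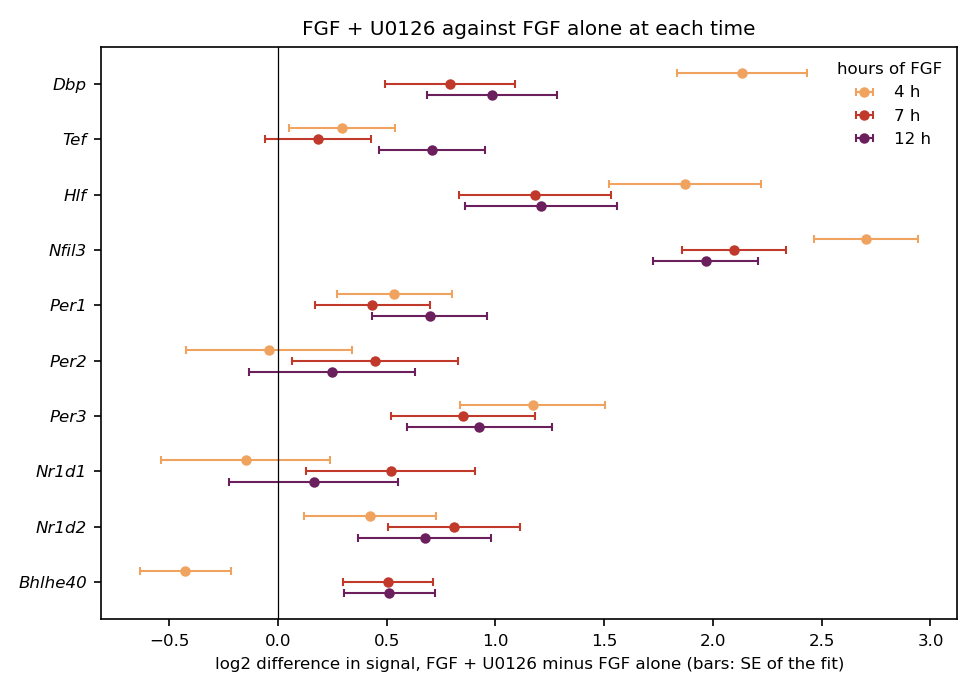
Log2 difference of FGF + U0126 minus FGF alone for each of the 10 genes at 4, 7 and 12 h, with bars for the standard error of the fit. Nfil3 lies furthest right at each time (2.70, 2.10 and 1.97), Dbp is at 2.13 at 4 h and under 1 later, and Bhlhe40 is at -0.42 at 4 h and 0.51 at 7 and 12 h.

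The U0126 arrays alone give a time course whose differences share no array with the values that chose the genes. Their standard errors and p-values come from the fit over all 11 groups, so these also draw on the spread of the FGF-alone and quiescent arrays. Between 4 and 12 h of FGF + U0126, 4 of the 10 genes fell: Dbp, Per2, Nfil3 and Per3. Dbp fell by 1.81 on the log2 scale (SE 0.30, limma adjusted p = 0.014) and Per2 fell by 2.18 (SE 0.38, adjusted p = 0.018). Nfil3 fell by 1.19 (SE 0.24, limma adjusted p = 0.031) and Per3 fell by 1.58 (SE 0.33, adjusted p = 0.037). Of all genes 0.507% were called lower and 0.380% higher there, 0.887% in all. An unadjusted limma p under 0.05 was reached there by 9 of 10 members and by 11.2% of all genes. The 12 h signal was lower than the 4 h signal in both experiments for 9 of 10 genes, and Nr1d1 was higher by 0.58 in experiment 1 and by 0.02 in experiment 2. The share of all genes that were lower in both experiments is not given here. With the experiment number as a block, all but Nr1d1 passed as lower, 9 of 10, where 2.48% of all genes passed as lower and 4.92% in all. Those added were Hlf (-1.21, limma adjusted p = 0.0038), Tef (-0.83, 0.011), Nr1d2 (-0.66, 0.021), Bhlhe40 (-0.77, 0.022) and Per1 (-0.78, 0.032). Without the block, leaving out any 1 of the 4 arrays compared left 0 calls, with 6 to 9 members at an unadjusted limma p under 0.05; the Dbp adjusted p then ran from 0.074 to 0.13 while its difference stayed at -1.82 to -1.79.

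**Figure D3:**
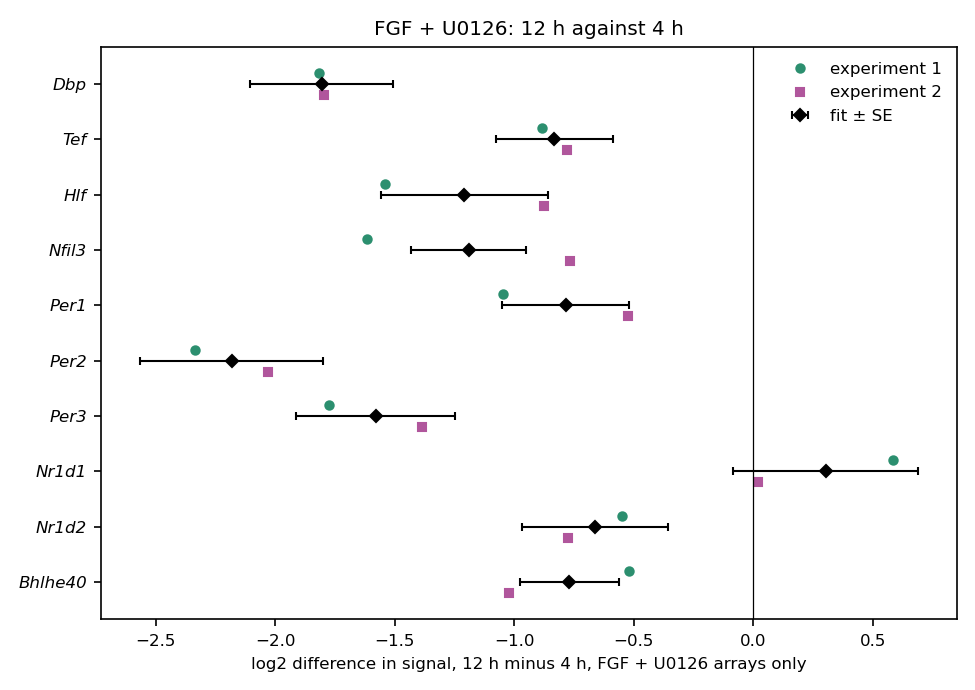
Log2 difference of 12 h minus 4 h within FGF + U0126 arrays; black diamonds are the fit with its standard error, green circles experiment 1 and purple squares experiment 2. All genes but Nr1d1 lie left of 0 in both experiments, Per2 (-2.18) and Dbp (-1.81) furthest.

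The fall of Dbp with FGF + U0126 lay before 7 h, and between 7 and 12 h Dbp differed by 0.18 ± 0.30. Between 4 and 7 h Dbp fell by 1.98 (SE 0.30, limma adjusted p = 0.031), the 1 member called there (0.147% of all genes). With the block 4 were called as lower, also Tef (-0.74, limma adjusted p = 0.036), Nfil3 (-0.80, 0.047) and Per3 (-1.25, 0.02), with 2.49% of all genes called. Between 7 and 12 h 0 of 10 were called by limma (0.0467% of all genes), and Per2 (-1.22) and Nr1d1 (0.87) had an unadjusted p under 0.05, as did 7.23% of all genes. Between 1 and 4 h of FGF + U0126 Nfil3 rose by 1.24 ± 0.29 (limma adjusted p = 0.034) and Bhlhe40 fell by 1.29 (SE 0.25, limma adjusted p = 0.012), 2 of 10 where 3.28% of all genes were called; with the block 7 were called, Dbp, Tef, Per1, Nr1d1 and Nr1d2 as lower besides, and 10.2% of all genes. In FGF alone between 4 and 12 h, 3 of 7 tested genes fell (Per2, Bhlhe40 and Per1; 6.55% of all genes called), and between 1 and 4 h 3 fell, Hlf by 1.96 (limma adjusted p = 0.018), Per1 by 1.69 (adjusted p = 0.009) and Bhlhe40 by 1.37 (adjusted p = 0.0074), with 5.18% of all genes called. The block added Nr1d2 in both, at 12 against 4 h (-0.91, limma adjusted p = 6.1e-04 against 0.10; 14.1% of all genes) and at 4 against 1 h (-0.92, 0.0052 against 0.33; 14.3% of all genes). Between 4 and 7 h of FGF alone 1 of 7 fell, Bhlhe40 by 1.44 (limma adjusted p = 0.011), with 0.120% of all genes called, and with the block 4 did (also Per2, Nr1d1 and Nr1d2; 1.90% of all genes called). Between 7 and 12 h 0 of 7 were called by limma (1.83% of all genes), and Per2 and Nr1d1 had an unadjusted p under 0.05, as did 10.8% of all genes. With the block Nr1d1 was called, as given above (4.72% of all genes).

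With FGF + U0126 set against quiescent cells, the average over 4, 7 and 12 h was higher for Nfil3 (2.42 ± 0.20, limma adjusted p = 3.3e-06) and lower for Nr1d1 and Per2 (-1.02 ± 0.31, limma adjusted p = 0.048), 3 of 7 tested where 11.3% of all genes were called. The Per2 call did not hold in 17 of 26 alternatives, with adjusted p up to 0.13. With the block Nr1d2 was also called (-0.68, limma adjusted p = 8.7e-04), where 21.0% of all genes were. Dbp (-2.0 ± 0.24), Per3 (-1.45 ± 0.27) and Tef (-1.14 ± 0.20) also lay below quiescent cells with U0126 present, and Hlf (-0.43), Per1 (-0.32) and Bhlhe40 (-0.11) did not pass, with adjusted p of 0.43, 0.43 and 0.80 in the limma fit. At 1 h 2 of 7 were called, Nfil3 and Bhlhe40, both higher, where 0.113% of all genes were called. At 4 h 1 was called (Nfil3; 7.38% of all genes), at 7 h Nfil3 and Nr1d1 (-1.73 ± 0.39, limma adjusted p = 0.011; 9.07% of all genes) and at 12 h Nfil3 and Per2 (-2.15 ± 0.38, limma adjusted p = 0.0034; 5.42% of all genes). The block added Nr1d1 at 4 h (limma adjusted p = 0.0086), Nr1d2 at 7 h (0.0011), and Hlf, Per1 and Nr1d2 at 12 h (0.0037, 0.033 and 0.0005), each below quiescent cells, where the block called 15.0%, 18.5% and 14.4% of all genes at these times.

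U0126 added after FGF was measured on 1 array at each of 7 and 12 h. At 7 h with U0126 from 1 h, Nfil3 stood at 2004, beside 1984 and 1875 with U0126 from the start and 440.3 and 441 with FGF alone, and at 12 h with U0126 from 7 h it stood at 1561.5, beside 1281 and 1688 and then 449 and 298. The late arrays thus lay above the FGF-alone range, just above both early-addition arrays at 7 h and between them at 12 h. Against FGF alone Nfil3 rose by 2.15 ± 0.29 at 7 h (limma adjusted p = 6.3e-04; 1 of 7 called, 3.59% of all genes) and by 2.05 ± 0.29 at 12 h (limma adjusted p = 8.6e-04; 2 of 7 called, 5.05% of all genes). Each late group is 1 array, so these tests take its spread from the replicated groups and assume that it varies as they do. Both late arrays are from experiment 1, and the groups they are set against average both experiments. With the block Hlf was also called at 7 h (1.09, limma adjusted p = 0.021 against 0.40; 7.49% of all genes) and Per1 at 12 h (0.84, 0.04 against 0.28; 11.3% of all genes). Hlf stood at 665 at 7 h and 954 at 12 h, where it lay above all 4 of the other arrays, and rose by 2.03 ± 0.43 at 12 h against FGF alone (limma adjusted p = 0.012), a call from 1 late array against 2 that were far apart (148 and 334). Dbp stood at 188 at 7 h and 276 at 12 h, 0.38 ± 0.37 and 0.93 ± 0.37 above FGF alone. Within experiment 1 these differences were 0.66 and 0.93. Late against early addition at 7 h gave -0.41 for Dbp and -1.01 for Nr1d1 in the fit, and 0.11 and -0.60 within experiment 1. Nr1d2 at 12 h stood at 867, below all 4 of the other 12 h arrays, and Nr1d1 at 125.5 likewise. Late against early U0126, 0 of 10 were called by limma at 7 h (0% of all genes). An unadjusted limma p under 0.05 was reached there by 0 members and by 437 genes in all (2.91%). At 12 h 0 of 10 were called (0.674% of all genes). There 1 member, Nr1d2, had an unadjusted limma p under 0.05, as did 9.06% of all genes. With the block Nr1d2 fell by 0.93 at 12 h with late against early addition (limma adjusted p = 0.017; 2.25% of all genes). Differences of late from early addition had standard errors of 0.25 to 0.47, so a difference of that size could not be told from 0.

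**Figure D4:**
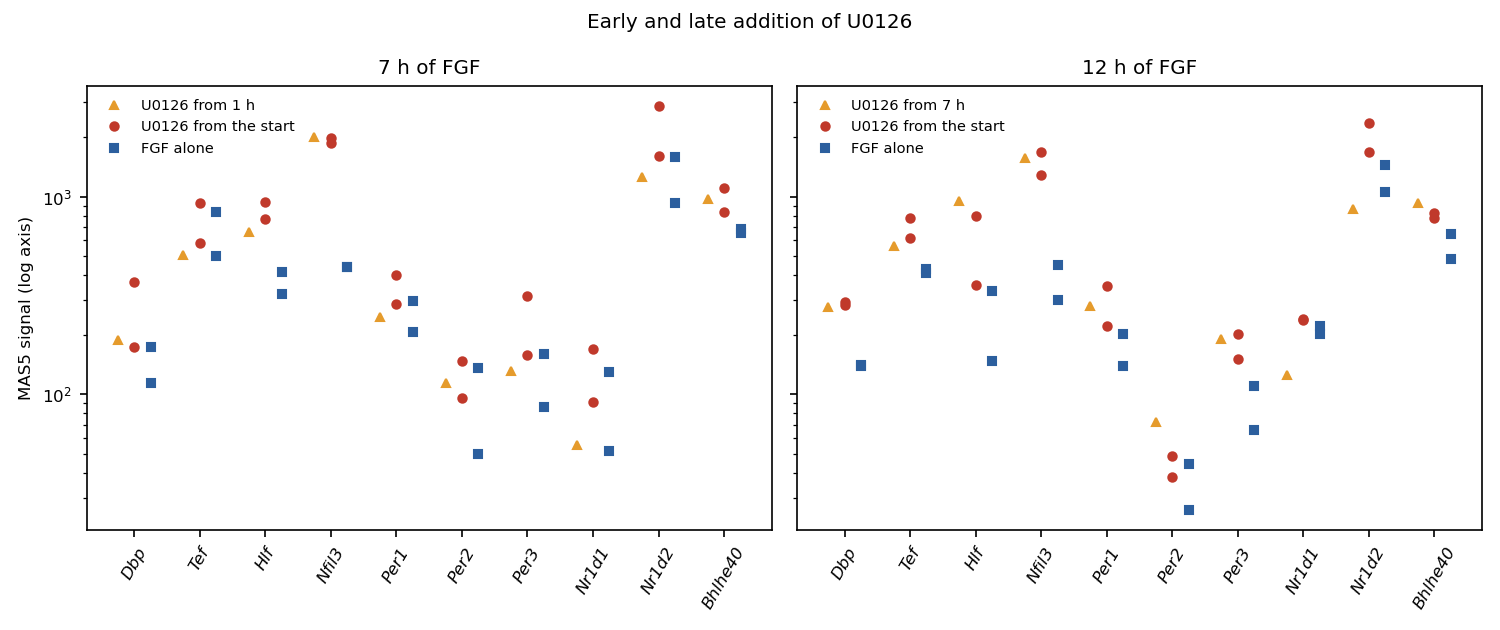
Signal on a log axis for each of the 10 genes at 7 h (left panel) and 12 h (right panel); orange triangles are U0126 added 1 h or 7 h after FGF, red circles U0126 from the start and blue squares FGF alone, 1 point per array. For Nfil3 the late arrays (2004 and 1561.5) sit with early addition and above FGF alone; the late Nr1d2 point at 12 h (867) sits below the other 4 Nr1d2 points of that panel.

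Where a gene had several probe sets, they gave the same sign of the average U0126 difference with different sizes, except for Per2. The dimmer Dbp probe set gave 1.16 for the average U0126 difference and -2.85 for FGF against quiescent cells, beside 1.30 and -3.30. The second Hlf probe set gave a U0126 difference of 1.10 (limma adjusted p = 1.9e-04 over all probe sets), the 3 Tef probe sets 0.39 to 0.42, and the 6 Per3 probe sets 0.08 to 0.98. The other 2 Per2 probe sets, with mean signals of 59.4 and 60.1, gave -0.04 and -0.03, where the brighter one gave 0.22. Between 4 and 12 h of FGF + U0126 these 2 went from 68.6 to 48.1 and from 79.6 to 58.4, the brighter one from 244.5 to 43.5. In FGF alone they went from 68 to 60.8 and from 65.05 to 28.35, the brighter one from 252 to 35.15. With U0126 the Per3 probe set of mean signal 90.9 went from 69.85 to 78.7, while the other Per3 probe sets were lower at 12 h. All 22 probe sets but that of Nfil3 gave a negative FGF against quiescent average, from -3.30 to -0.25.

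Other genes of the clock and its inputs and outputs were followed in 4 lists. In the average U0126 difference 22.0% of all genes were called, 11.7% higher and 10.3% lower. With the experiment as a block 30.6% were called. Of 12 core clock activators, CRY genes and their partners 11 were tested, and in the average U0126 difference 1 fell (Timeless, a replication-fork gene with a clock role in Drosophila), 0 rose and 10 did not pass. Timeless fell by 2.83 (SE 0.32, limma adjusted p = 1.3e-05), and the list median was 0.06 beside 0.01 over all genes. Rorb (0.80, mean signals of 44.6 with U0126 and 27.5 with FGF alone), Npas2 (0.79, 31.4 and 10.7), Arntl (Bmal1, -0.25) and Cry2 (0.22) did not pass, with limma adjusted p of 0.21, 0.16, 0.12 and 0.11. With the experiment as a block Arntl passed (adjusted p = 0.043). In FGF against quiescent cells Arntl rose by 0.47 ± 0.15 (limma adjusted p = 0.042) and Rora, an activator at the sites where REV-ERB represses, fell by 1.33 (SE 0.17, limma adjusted p = 7.7e-05), 2 of 11, beside 19.2% of all genes called. With the block Cry1 (1.03, limma adjusted p = 8.8e-04 against 0.093) and Cry2 (-0.39, 0.02 against 0.053) also passed, and 28.9% of all genes. Of 8 kinases and ubiquitin ligases that act on PER and CRY 6 were tested, and Gsk3b rose with U0126 by 0.43 ± 0.10 (limma adjusted p = 0.0054) while 5 did not pass, among them Csnk1e (0.26, adjusted p = 0.28; with the experiment as a block, 0.049) and Csnk1d (-0.17).

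Of 8 genes known as clock outputs 7 were tested, and 4 rose and 2 fell with U0126, with a list median of 0.28 beside 0.01. Of all genes 11.7% were called higher and 10.3% lower. Tsc22d3, a glucocorticoid-induced leucine zipper gene, rose by 1.01 ± 0.13 (limma adjusted p = 4.7e-05), the ubiquitin protease Usp2 by 0.94 ± 0.17 (adjusted p = 8.2e-04), the cell cycle inhibitor Cdkn1a by 0.93 ± 0.15 (adjusted p = 3.6e-04) and Nampt, the NAD salvage enzyme, by 0.28 ± 0.07 (adjusted p = 0.013). The kinase gene Wee1 fell by 0.76 (SE 0.17, limma adjusted p = 0.005) and the rhythmically expressed gene Noct (nocturnin) by 0.39 (SE 0.12, limma adjusted p = 0.025). Of 10 immediate-early genes 2 rose and 4 fell, beside the same shares of all genes, with a median of -0.09. Atf3 (3.64 ± 0.13, limma adjusted p = 2.4e-10) and Nr4a1 (2.48 ± 0.18, adjusted p = 1.3e-07) rose. Egr1 fell by 4.06, Egr2 by 2.03 (limma adjusted p = 3e-05), Ier2 by 0.57 (adjusted p = 0.0044) and Junb by 0.56 (adjusted p = 0.0085). Fosb did not pass (0.87, limma adjusted p = 0.056). With the experiment as a block it did (limma adjusted p = 0.033), where 30.6% of all genes were called.

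**Figure D5:**
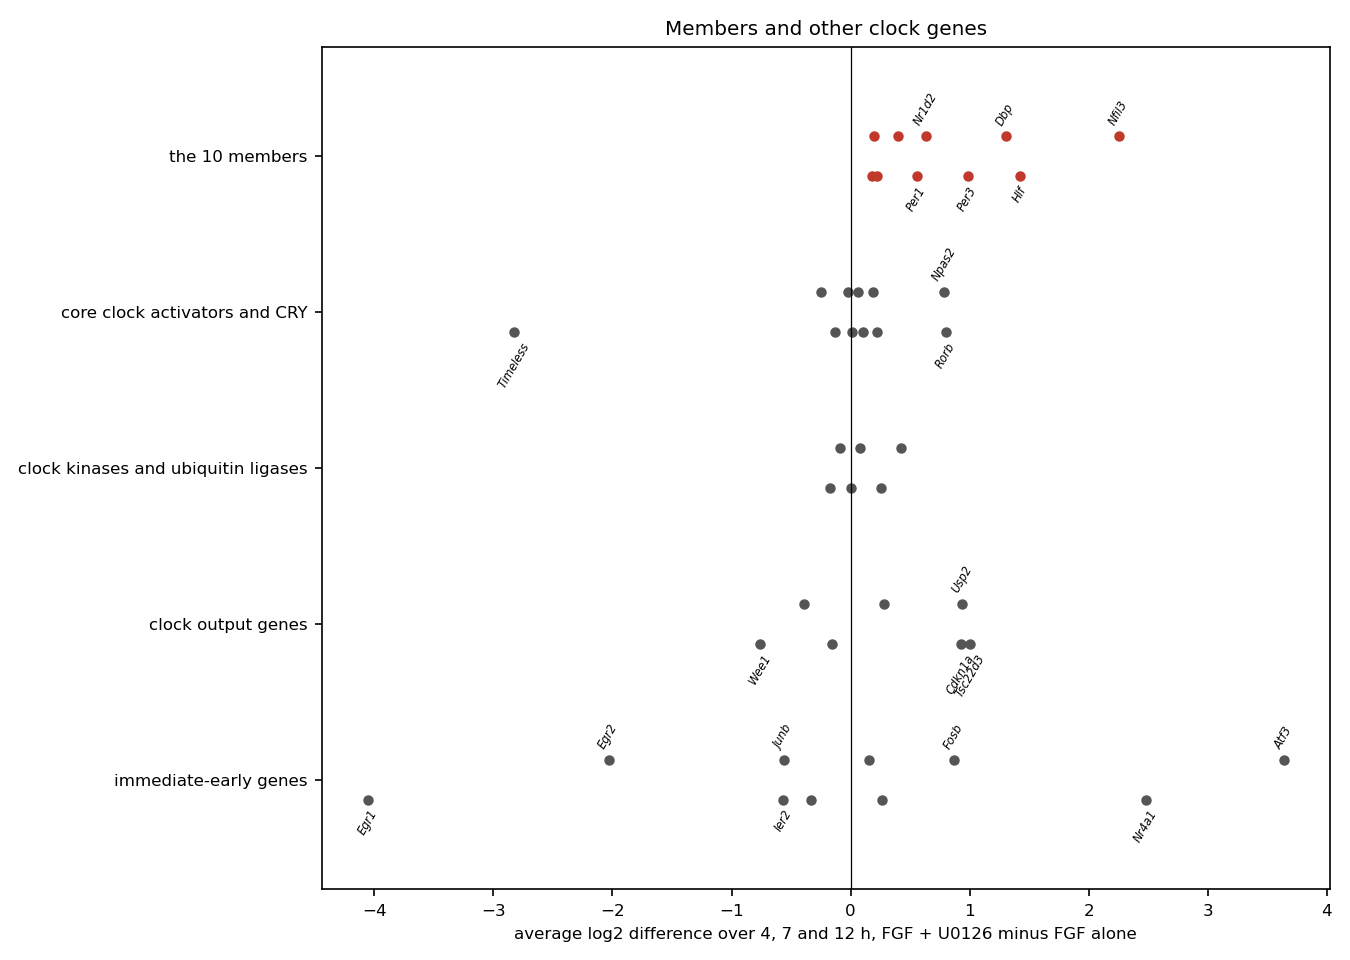
Average log2 difference over 4, 7 and 12 h of FGF + U0126 minus FGF alone, 1 point per gene, for the 10 members (red) and 4 other lists (grey); names are given for differences beyond 0.5 and the vertical offset within a list has no meaning. The members lie between 0.18 and 2.26, most core clock genes lie near 0, Timeless at -2.83, and immediate-early genes spread from -4.06 to 3.64.

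Genes with a course like that of 2 members were ranked by Pearson correlation over the 18 log2 columns of the fit, among 7497 other genes above the median level. The 5 nearest to Dbp were Sec16b (r = 0.939), Rfx5 (0.938), 4931406C07Rik (0.937), Parp9 (0.929) and Lpar1 (0.927). The 5 nearest to Bhlhe40 were Per1 (r = 0.866), Stx5a (0.848), Plekhf1 (0.843), Coq10b (0.819) and Ptx3 (0.814). Among the members Dbp and Per3 were the closest pair (r = 0.970) and Nfil3 and Nr1d1 the farthest (-0.224). Dbp and Per3 were both picked for a lower signal with FGF, and the correlation includes the arrays of that choice. The points share arrays and treatments, so these values rank likeness and carry no test.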

How the data were processed

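RNA of 19 NIH3T3 samples was measured on Affymetrix whole-genome mouse arrays. The deposited values are MAS5 signal intensity on a linear scale, per the submitters' processing notes; no version of MAS5 is given in the sources used here. Among the 45101 probe sets, 34945 mapped to 1 gene, 932 to several and 9160 to none, and 64 were controls. Values were taken as log2(signal + 13.6, the 20th percentile of all values). A probe set was used if 2 or more arrays had it above their own 40th percentile, and the one with the highest mean stood for each of 14996 genes. The 1a and 1b quiescent arrays entered as their mean, which left 18 columns in 11 groups. One limma 3.58.1 fit (R 4.3.3, variance trend, eBayes, 7 residual and 7.47 prior degrees of freedom) gave two-sided tests with Benjamini-Hochberg adjustment; the code was tested on simulated data. The number of arrays limits the precision.

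Experiment numbers paired the arrays: the 21 correlations between groups of the experiment 1 minus experiment 2 deviations were all above 0.1 (0.127 to 0.305), so values with the experiment number as a block (6 residual degrees of freedom) are given where they change a call. The members and gene lists were chosen with earlier results of these data known. The text names all 10 members; of each other list the genes past the threshold in the average U0126 difference, and at most 4 further ones by size; and the 5 genes most alike to Dbp and to Bhlhe40. Alternatives were other scalings, offsets, filters, probe set choices, fits and leaving out each replicated array.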

Additional observations from a re-analysis of the deposited data

How the results depend on the processing

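None of the 26 alternatives ended the average U0126 calls of Nfil3 and Hlf. The 7 members with an FGF difference below -1 were 6 with the offset at the 40th percentile (Per2 at -0.97) and 7 under each of the others. Leaving out arrays singly, the members called ranged from 2 to 4 for the average U0126 difference, from 1 to 2 at each of 4, 7 and 12 h, from 0 to 4 for FGF + U0126 at 12 against 4 h, from 2 to 3 for FGF alone at 12 against 4 h and from 1 to 4 for FGF + U0126 against quiescent cells (1 without quiescent replicate 2). With the experiment number as a block, 3 members were called at 7 h (12.5% of all genes), 4 at 12 h (20.6%), 9 for FGF + U0126 at 12 against 4 h (4.92%) and 1 (Nr1d2) for late against early U0126 at 12 h (2.25%). Fitting only the compared groups gave 2 at 7 h, 1 at 12 h and 1 for 12 against 4 h. Without a variance trend 1 was called at 12 h, 0 (8 at an unadjusted limma p under 0.05) for 12 against 4 h and 1 for FGF + U0126 against quiescent cells. Without the filter 1 was called at 12 h, and with probe sets of highest variance 2 for 12 against 4 h. The share of all genes called under these other fits is not given here, and the cause was not tested.

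Only differences without a call changed sign. Leaving out arrays singly, the U0126 difference ranged from -0.01 to 0.37 for Nr1d1 on average, from -0.10 to 0.02 for Per2 and from -0.60 to 0.30 for Nr1d1 at 4 h (0.12 without FGF + U0126 replicate 1), from -0.18 to 0.55 for Tef (-0.15 without FGF + U0126 replicate 2), from -0.17 to 1.06 for Per2 and from -0.05 to 1.08 for Nr1d1 at 7 h, and from -0.03 to 0.53 for Per2 at 12 h. In FGF alone at 12 against 4 h Hlf ranged from -1.10 to 0.01 and Nr1d1 from -0.46 to 0.44. In late against early addition, at 7 h Dbp ranged from -0.92 to 0.11, Per2 from -0.33 to 0.22 and Bhlhe40 from -0.18 to 0.21, and at 12 h Nfil3 from -0.11 to 0.28, Per1 from -0.33 to 0.32 and Per3 from -0.09 to 0.30. Probe sets of highest variance gave Tef -0.18 at 7 h. In late against early addition, Per2 at 7 h was 0.01 under quantile or 75th percentile scaling and 0.09 with the block, Nfil3 at 7 h was -0.03 with the block, and Per1 at 12 h was 0.02 with quantile scaling, 0.05 with 75th percentile scaling and 0.14 with the block. Comparisons of 1 array against 1 were not refitted on the compared groups only.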
